A study of Rattus norvegicus with 10 samples.

Results

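The genes described here are 10 markers of mural cells, the smooth muscle cells and pericytes that wrap blood vessels: Acta2, Actg2, Myh11, Tagln, Cnn1, Mylk, Mcam, Rgs5, Notch3 and Cspg4. They were chosen by name, and all 10 had a probe set (the group of probes that reads a gene) among the 15037 genes named on the array. Arteries and arterioles are sheathed by smooth muscle cells, which contract through smooth muscle actin and myosin after a kinase phosphorylates the myosin light chain. Capillaries, which run along every muscle fibre, carry pericytes instead, and these lie against the endothelium within its basement membrane. Skeletal muscle fibres use their own actin and myosin genes, so the contractile genes among these markers read mainly vessel walls in this tissue.

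The samples were femoral skeletal muscle from 10 adult male wild-type Wistar rats, each weighing less than 200 g. All rats were killed by cervical dislocation. Muscle was taken at once from 5 rats (0 h postmortem interval, PMI), and from the other 5 rats after the bodies had lain for 48 h at 25 °C. RNA of each rat was read on 1 Clariom S array, and the comparison asks which RNAs were higher or lower in the muscle 48 h after death. Whole muscle was extracted, so fewer cells of a type and less RNA per cell cannot be told apart. The authors checked ribosomal RNA bands on a gel at 0 h only, as they expected marked degradation at 48 h. RNA integrity therefore cannot be told apart from the interval in any change below. No 2 arrays held the same values.

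Over all 23188 probe sets tested, 1009 rose and 2811 fell, where rose and fell mean at least a 2-fold change and an adjusted p under 0.05 in limma. Those are 4.35% and 12.1% of the probe sets. The myofibre genes Acta1 (skeletal alpha-actin) and Ckm (muscle creatine kinase) which define the labelled tissue, had mean levels of 13.54 and 11.60 at 0 h. The deposited values force all arrays onto nearly the same median (between 5.17 and 5.21), while the 99th percentile was between 10.64 and 10.72 at 0 h and between 9.82 and 10.02 at 48 h. Each change below is therefore relative to the other RNAs on the array, and the median change over all probe sets was 0.10 on the log2 scale. That median was 0.01 after cyclic loess normalization, -0.37 after centring on olfactory receptor genes and -1.57 after centring on the bacterial and phage control probe sets. The share of calls that were lower was 73.6% in the deposited scaling, against 61.1%, 96.1% and 99.98% under those 3 scalings. In that order, 1307, 208 and 4 probe sets rose, and 2049, 5061 and 20238 fell.

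Of the 10 mural cell markers, 2 rose at 48 h and none fell, where 16.5% of all probe sets were called in either direction. The 2 that rose were Mcam, 3.32-fold higher, and Mylk, 2.08-fold higher. By adjusted p alone 5 markers were higher (22% of all probe sets were) and 1 was lower (22.8% of all were), where 44.9% of all probe sets passed in either direction. In 3 markers every 48 h rat lay above every 0 h rat, an order seen in 13.4% of all probe sets, and in 1 marker every 48 h rat lay below, as in 17.7% of all (31.1% in either direction). The median change of the 10 markers was 0.50, and single markers ran from -0.77 (Actg2) to 1.73 (Mcam). After cyclic loess 5 markers rose, where 1307 of all 23188 probe sets did, and the markers' median was 0.95. After centring on olfactory receptors, where 208 of all probe sets rose and 5061 fell, 1 marker rose, 1 fell and the median was 0.035. After centring on the bacterial controls 6 fell, none rose and the median was -1.17, where 20238 of all 23188 probe sets fell.

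**Figure D1:**
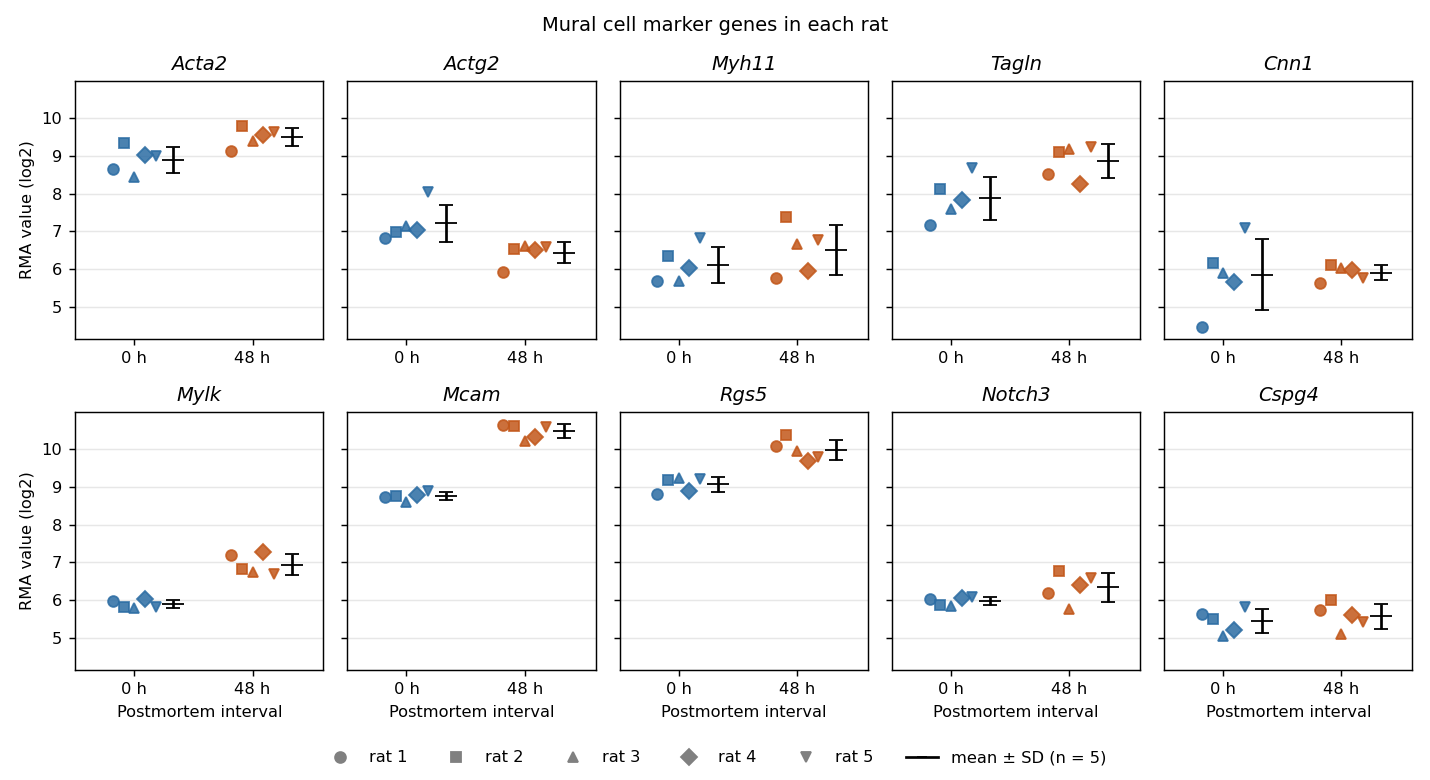
Log2 level of each of the 10 mural cell markers (vertical axes) in each rat at 0 h and at 48 h, with the group mean and SD, n = 5 rats a group. The groups lie apart in Mylk, Mcam and Rgs5, with 48 h above, and in Actg2, with 48 h below. In the other 6 genes the rats of both groups overlap.

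Acta2 encodes smooth muscle alpha-actin, the main actin of the thin filaments in vascular smooth muscle. Its log2 level was 8.65, 9.35, 8.45, 9.03 and 8.99 in 0 h rats 1 to 5. It was 9.13, 9.79, 9.39, 9.54 and 9.63 in 48 h rats 1 to 5. The groups overlapped only because 0 h rat 2 lay above 48 h rat 1. The mean went from 8.90 ± 0.35 to 9.50 ± 0.25 (SD, n = 5 each), a change of 0.60 (SE 0.19, 95% interval 0.20 to 1.01, limma adjusted p = 0.0176) that stayed under 2-fold.

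The 250 bases in front of the transcription start were searched for the CArG box, the element through which serum response factor drives smooth muscle genes, written CC, then 6 bases of A or T, then GG. Promoter sequence from RefSeq (GRCr8) was at hand for 7 of the 10 markers, namely Acta2, Actg2, Cnn1, Mylk, Rgs5, Notch3 and Cspg4. A perfect CArG box was found in none of the 7 (1.5% of 27457 rat promoters hold one). A CArG-like element, with at most 1 C or G among the 6 central bases, was found in 1 of the 7, the Acta2 promoter, against 7.97% of all. The stretch of the Acta2 promoter that holds both of its elements is shown because it is the only one among the 7 with such a match. It lies at chr1:241172563-241172652 of GRCr8 on the minus strand, and capitals mark the elements, which sit 134 to 125 and 84 to 75 bases before the start.
Acta2: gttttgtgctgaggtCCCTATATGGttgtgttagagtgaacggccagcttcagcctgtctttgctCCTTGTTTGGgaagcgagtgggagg
The letters TGGGAA, a core bound by the Notch mediator RBPJ, were searched on both strands and stood in 4 of the 7 promoters (Acta2, Actg2, Cnn1 and Mylk), against 21.6% of all. In Acta2 that match overlaps the second CArG-like element. These are matches of letters in a window and carry no measurement of binding.

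Actg2, the gamma-actin best known from gut smooth muscle, went the other way. At 0 h its log2 level was 6.82, 6.99, 7.14, 7.02 and 8.05 in rats 1 to 5. At 48 h the level was 5.93, 6.52, 6.62, 6.51 and 6.59. Every 48 h rat lay below every 0 h rat, 0 h rat 5 stood far above its group and 48 h rat 1 far below its own. The change was -0.77 (SE 0.22, 95% interval -1.24 to -0.30, adjusted p = 0.00973), short of 2-fold. Its change was -0.56 without 0 h rat 5 and lay between -0.87 and -0.56 over the 10 fits that left out 1 rat.

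The difference between actin genes was also read within each array. This takes out an offset that is the same for all log2 values of an array, but not a difference in range between arrays. Acta2 minus Actg2 was 1.83, 2.36, 1.31, 2.01 and 0.94 log2 units at 0 h and 3.21, 3.27, 2.78, 3.03 and 3.05 at 48 h. The difference widened by 1.38 between the group means (1.69 ± 0.57 to 3.07 ± 0.19), and the groups did not overlap. Against Acta1, the skeletal muscle actin, the difference of Acta2 was -4.92, -4.19, -5.03, -4.52 and -4.54 at 0 h and -3.73, -2.80, -3.60, -3.38 and -3.14 at 48 h. It moved by 1.31 in the same direction. Both pairs gave an exact two-sided permutation p = 0.00794, the smallest that 252 splits of 5 against 5 allow, and the pairs were chosen after the values had been seen. The differences between pairs of genes say how unequally they changed, not how much RNA each had. Actin genes are nearly identical in their coding parts, so a probe of 1 actin can also take up RNA of another, and its part in these values was not tested.

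**Figure D2:**
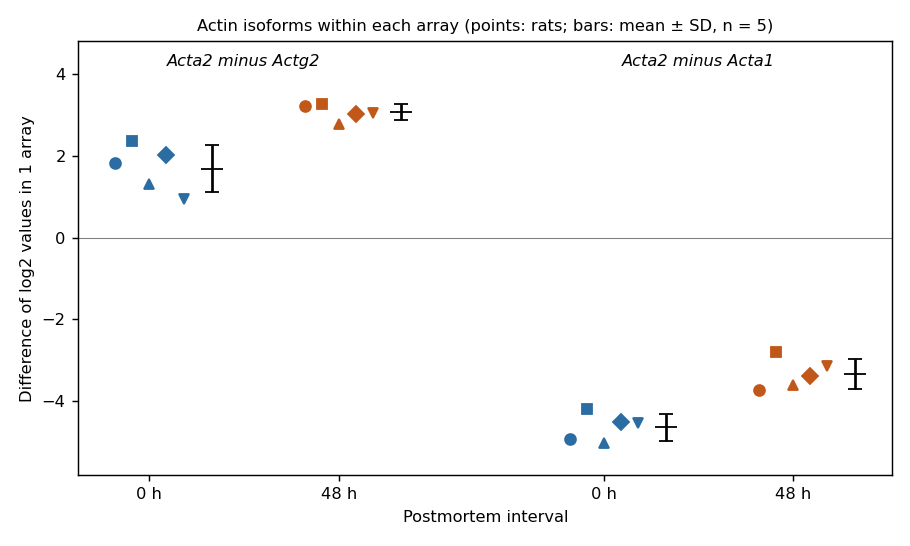
Difference in log2 level between Acta2 and Actg2 and between Acta2 and Acta1 within each array (vertical axes), per rat at 0 h and at 48 h, with the group mean and SD, n = 5 rats a group. In both panels all 48 h rats lie above all 0 h rats, by 1.38 and 1.31 log2 units between the means.

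Myh11, the myosin heavy chain of smooth muscle and a marker of mature contractile cells, varied widely between rats. It was at 5.69, 6.35, 5.67, 6.03 and 6.81 at 0 h. At 48 h it was at 5.76, 7.38, 6.66, 5.95 and 6.78. All 48 h rats but rat 2 lay within the 0 h range, and rat 2 lay above it. The change of 0.40 had a 95% interval from -0.21 to 1.0 (adjusted p = 0.270), an interval that reaches from a small fall to a 2-fold rise.

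Tagln encodes transgelin (SM22), an actin-binding protein abundant in smooth muscle. Its level was 7.16, 8.12, 7.59, 7.83 and 8.68 at 0 h. It was 8.52, 9.11, 9.18, 8.26 and 9.24 at 48 h. Only 0 h rat 5 lay within the 48 h range. The mean went from 7.88 ± 0.57 to 8.86 ± 0.44, a change of 0.99 or 1.98-fold (SE 0.26, adjusted p = 0.00588), just outside the 2-fold threshold. Tagln passed the threshold when 0 h rat 2 (1.05), 0 h rat 5 (1.19), 48 h rat 1 (1.07) or 48 h rat 4 (1.14) was left out.

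Cnn1, calponin, binds thin filaments and dampens the myosin motor. At 0 h it ran from 4.46 in rat 1 to 7.09 in rat 5, with 6.15, 5.90 and 5.64 in rats 2 to 4. At 48 h the 5 rats lay close together at 5.63, 6.11, 6.03, 5.97 and 5.77. The change was 0.05 (95% interval -0.64 to 0.75, adjusted p = 0.905). It was -0.29 without 0 h rat 1 and 0.36 without 0 h rat 5, and its sign turned only without 0 h rat 1.

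Mylk encodes the myosin light chain kinase of smooth muscle and non-muscle cells, the enzyme that switches contraction on, whereas skeletal fibres use Mylk2. At 0 h its log2 level was 5.98, 5.81, 5.80, 6.02 and 5.82. At 48 h it was 7.18, 6.83, 6.75, 7.27 and 6.68. The groups were clearly apart, with 48 h rats 1 and 4 the highest. Mylk rose by 1.06 (SE 0.17, 95% interval 0.71 to 1.40, adjusted p = 6.91e-05), from 5.89 ± 0.10 to 6.94 ± 0.27. It was barely inside the 2-fold threshold, which it missed without 48 h rat 1 (0.99) or without 48 h rat 4 (0.97). Its change was 0.59 after centring on olfactory receptors and -0.62 after centring on bacterial controls.

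Mcam (CD146), an adhesion molecule of pericytes and smooth muscle cells that endothelial cells also carry, had the largest change of the 10. Its log2 level was 8.73, 8.76, 8.60, 8.79 and 8.88 at 0 h. It was 10.65, 10.62, 10.22, 10.33 and 10.59 at 48 h. The lowest 48 h rat lay far above the highest 0 h rat. Mcam rose by 1.73 (SE 0.16, 95% interval 1.40 to 2.06, adjusted p = 1.77e-07), and 99.7% of all probe sets had a lower change. The rise was between 1.69 and 1.80 over the 10 fits that left out 1 rat. It was 2.37 after cyclic loess, 1.27 after centring on olfactory receptors and 0.06 after centring on the bacterial controls.

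Rgs5, a regulator of G-protein signalling and one of the most selective pericyte genes, was at 8.82, 9.20, 9.25, 8.88 and 9.20 at 0 h. At 48 h it was at 10.07, 10.38, 9.94, 9.68 and 9.80. Every 48 h rat was above every 0 h rat. The change was 0.91 or 1.87-fold (SE 0.17, 95% interval 0.54 to 1.27, adjusted p = 0.000482), under the 2-fold threshold. After cyclic loess it was 1.54 and past the threshold. It was 0.44 (limma adjusted p = 0.0543) after centring on olfactory receptors and -0.77 after centring on bacterial controls.

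Notch3 encodes the Notch receptor on which arterial smooth muscle and pericytes depend. The 5 rats of the 0 h group read 6.03, 5.86, 5.85, 6.05 and 6.09. The other 5 rats, kept for 48 h, read 6.19, 6.76, 5.77, 6.39 and 6.58. Of the 48 h rats, 4 lay above the whole 0 h range and rat 3 lay below it. The change was 0.36 (95% interval -0.03 to 0.75, adjusted p = 0.124).

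Cspg4 encodes the proteoglycan NG2, a common stain for pericytes. Its level was 5.62, 5.51, 5.05, 5.20 and 5.82 in the 0 h rats. In the 48 h rats it was 5.73, 5.99, 5.10, 5.59 and 5.42. The groups overlapped almost fully, with a change of 0.13 (95% interval -0.29 to 0.55, adjusted p = 0.618). Of the 4 pericyte markers, Mcam thus rose, Rgs5 was higher by adjusted p alone, and Notch3 and Cspg4 passed neither test.

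**Figure D3:**
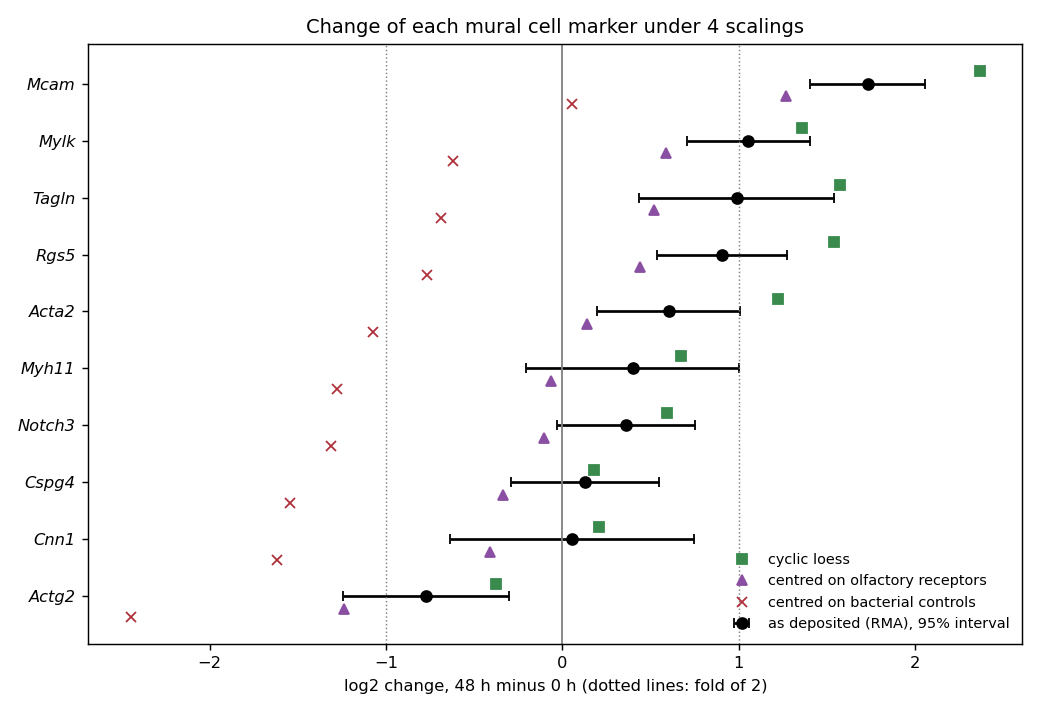
Log2 change at 48 h against 0 h (horizontal axis) of each mural cell marker, with its 95% interval in the deposited scaling and, as other symbols, its value under cyclic loess and under centring on olfactory receptor or bacterial control probe sets. Mcam is above 0 in all 4 (from 0.06 to 2.37), Actg2 is below 0 in all 4 (from -0.38 to -2.45), and the other 8 genes are below 0 after bacterial centring.

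Low signal bears most on 2 of these genes. The 95th percentile of 1057 olfactory receptor probe sets on the same array, taken as a floor, was between 4.63 and 4.75 at 0 h and between 5.29 and 5.64 at 48 h. On every array 8 of the 10 markers were above it. Cnn1 was above it in 4 of 5 rats at 0 h and in 5 of 5 at 48 h, and Cspg4 in 5 of 5 and in 3 of 5. The change of Cspg4 is therefore read near the floor at 48 h. Myh11 and Notch3 came within 0.31 and 0.42 of the floor on their closest arrays. After centring on olfactory receptors their changes were -0.07 and -0.10.

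The spread between rats also changed, and differently among the markers. Over all probe sets the SD between rats was smaller at 48 h in 14.5%, and the median SD was 0.19 at 0 h and 0.37 at 48 h. Among the 10 markers it was smaller at 48 h in 4, namely Acta2, Actg2, Tagln and Cnn1. In the 5 contractile genes, these 4 with Myh11, the SD had a median of 0.49 at 0 h and 0.29 at 48 h. In the other 5 (Mylk, Mcam, Rgs5, Notch3 and Cspg4) it was 0.11 and 0.27. In the 21 other smooth muscle contractile genes the SD was larger at 48 h in 16, with a median of 0.21 at 0 h and 0.34 at 48 h. The split of the 10 markers was made after the values had been seen and was given no test.

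At 0 h the same rats stood at the ends for many of the markers. Rat 5 was highest in 7 of the 10 (Actg2, Myh11, Tagln, Cnn1, Mcam, Notch3 and Cspg4), while it was highest in 18.2% of all probe sets. Rat 1 was lowest in 4 and rat 3 in the other 6, against 23.2% and 20.6% of all probe sets. Rat 5 was also the highest 0 h rat in 9 of 21 other smooth muscle contractile genes. Markers of other cells did not sit evenly in these rats either: rat 1 was lowest in 7 of 11 endothelial markers and highest in 6 of 10 myofibre markers. It was lowest in 23.2% and highest in 23.3% of all probe sets. The part of the cell content of each piece of muscle in this spread was not tested. At 48 h rat 2 was highest in 6 of the 10 (Acta2, Myh11, Cnn1, Rgs5, Notch3 and Cspg4), against 22.4% of all probe sets. The 48 h rat 1 was lowest in Acta2, Actg2, Myh11 and Cnn1, and in 19.5% of all probe sets.

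**Figure D4:**
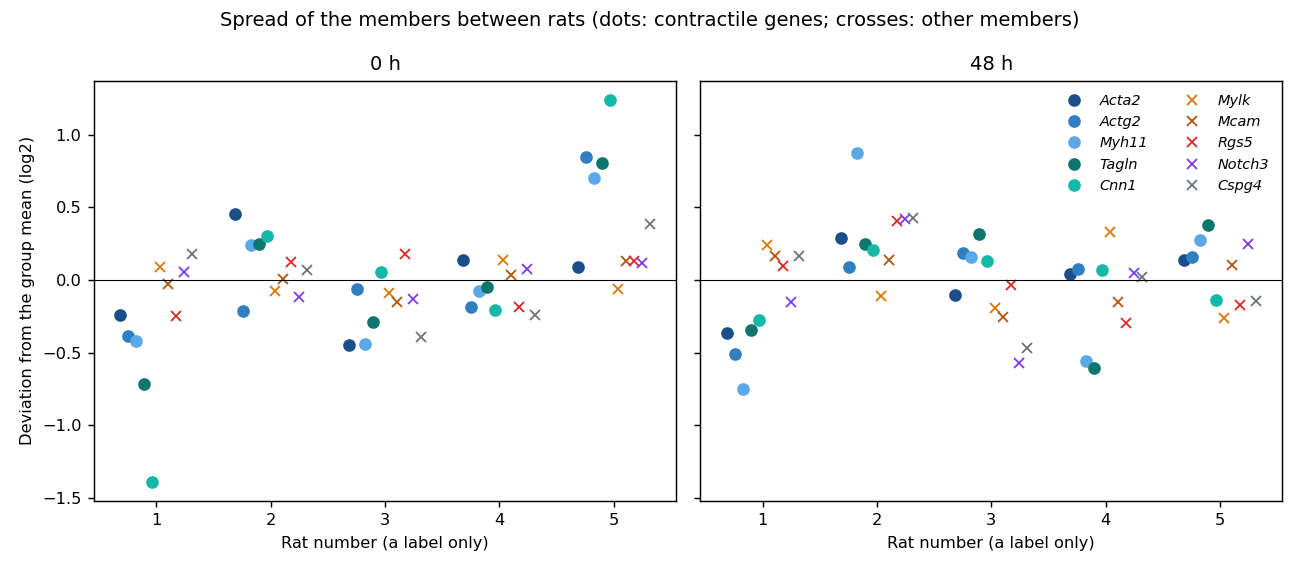
Deviation of each mural cell marker from its group mean (vertical axis, log2) in each rat at 0 h and at 48 h, with dots for the 5 contractile genes and crosses for the other 5. At 0 h the contractile genes run from -1.39 (Cnn1, rat 1) to 1.24 (Cnn1, rat 5), while the crosses stay between -0.39 (Cspg4, rat 3) and 0.38 (Cspg4, rat 5).

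Among 15036 other named genes, those whose profile over the 10 arrays was most like that of Mcam were Myo1d, Ebf1, Exoc3l1, S1pr1 and Rgs3. Likeness was the root-mean-square difference of the profiles, each centred on its own mean, and it ran from 0.15 (Myo1d) to 0.19 (Rgs3) log2 units. Since this ranks on the same 2 groups, all 5 were higher at 48 h, by 1.57, 1.55, 1.76, 1.54 and 1.62. Myo1d encodes an unconventional myosin, S1pr1 the sphingosine-1-phosphate receptor of endothelium, Rgs3 a regulator of G-protein signalling like Rgs5, and Ebf1 a transcription factor that recurs below.

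The other genes of smooth muscle contraction moved in both directions. Every named gene that rose here, or among the regulators, pericyte and vasoactive genes that follow, was below 0 after centring on bacterial controls. Of 21 measured of 23 listed, 3 rose, 5 fell and 13 passed no call, with a median change of 0.20. Of all 23188 probe sets, 4.35% rose and 12.1% fell. After cyclic loess 7 of the 21 rose and 4 fell, where 1307 of all probe sets rose and 2049 fell. After centring on olfactory receptors 7 of the 21 fell and none rose, where 5061 of all probe sets fell and 208 rose. Among those that fell were Ppp1r12b (-1.99, SE 0.16), a regulatory subunit of a myosin phosphatase, and Ppp1cb (-1.94, SE 0.17), a catalytic subunit. Kcnma1, the large-conductance potassium channel that relaxes smooth muscle, fell by 1.94 (SE 0.20), and Pdlim7, a scaffold of actin filaments, by 1.88 (SE 0.24). Tpm4, a tropomyosin of non-muscle filaments, rose by 1.15 (SE 0.17) and Flna, filamin A, by 1.06 (SE 0.17), although Flna missed the fold without 48 h rat 1 (0.99). The adjusted p of these 6 lay between 4.84e-08 and 8.55e-05. Tpm1, which striated and smooth muscle share, changed by -0.92 (adjusted p = 0.000742), and Tagln2, the non-muscle relative of Tagln, by 0.72 (adjusted p = 0.0107), both under 2-fold. Ppp1r12a, another regulatory subunit of myosin phosphatase in the same list, went the other way, by 0.78 (adjusted p = 0.00276), also under 2-fold. In Ppp1r12a every 48 h rat lay above every 0 h rat. Several of these genes are also used by skeletal muscle fibres, so a whole-muscle level is not that of vessels alone. From which cells the RNA of each gene came was not tested.

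Of 11 measured of 15 listed transcriptional regulators of smooth muscle, 1 fell, none rose and 10 passed no call. Of all probe sets 12.1% fell and 4.35% rose. The 11 regulators had a median change of 0.47. By adjusted p alone 7 were higher, where 22% of all probe sets were. The one that fell was Srf, serum response factor itself, whose mean went from 7.55 ± 0.42 to 6.02 ± 0.47, a change of -1.53 (SE 0.24, adjusted p = 6.40e-05). Nr2f2, a factor of venous identity, changed by 0.82 (adjusted p = 0.00151) and Klf4, a repressor of the contractile programme, by 0.63 (adjusted p = 0.0132), both under 2-fold.

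Of 18 measured of 20 further pericyte and mural genes, 2 rose, 1 fell and 15 passed no call, with a median change of 0.06. Among all probe sets 4.35% rose and 12.1% fell. Ebf1, a factor present in many mural cells, rose by 1.55 (SE 0.17, adjusted p = 1.20e-06). Gja5, the gap junction protein connexin 40 of arterial endothelium and renin-lineage mural cells, rose by 1.05 (SE 0.22, adjusted p = 0.000972), a call it lost without 0 h rat 1 (0.91), 48 h rat 1 (0.98) or 48 h rat 2 (0.90). Cd248, endosialin, which fibroblasts and pericytes carry, fell by 1.35 (SE 0.21, adjusted p = 6.40e-05). Art3 changed by 0.70 (adjusted p = 0.00526), and Abcc9, the sulphonylurea receptor of pericyte and muscle potassium channels, by -0.18 (adjusted p = 0.342), which was 0.45 after cyclic loess. Without 0 h rat 3, 4 of the 18 rose and 1 fell, and after cyclic loess 5 rose and none fell. Cyclic loess gave 1307 that rose and 2049 that fell among all 23188 probe sets.

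Of 17 measured of 20 vasoactive receptors and signalling genes, 3 rose, none fell and 14 passed no call, with a median change of 0.16. Among all probe sets 4.35% rose and 12.1% fell. After centring on olfactory receptors none of the 17 rose and 1 fell, where 208 of all 23188 probe sets rose and 5061 fell. Npr1, Gucy1a1 and Cacna1c, at 0.82, 0.68 and 0.54, were then under 2-fold. Npr1, the receptor of atrial natriuretic peptide, rose by 1.29 (SE 0.20, adjusted p = 5.09e-05). Gucy1a1, a subunit of the guanylate cyclase that nitric oxide activates, rose by 1.15 (SE 0.22, adjusted p = 0.000513), and fell short of 2-fold without 48 h rat 2 (0.97). Cacna1c, the L-type calcium channel of smooth and cardiac muscle, rose by 1.01 (SE 0.18, adjusted p = 0.000261), but missed 2-fold without 0 h rat 2 (0.99), 0 h rat 3 (0.96), 0 h rat 4 (0.98) or 48 h rat 4 (0.88). The purinergic receptor P2rx1 changed by 0.66 (adjusted p = 0.00993) and Agtr1a, the angiotensin receptor, by 0.16 (adjusted p = 0.637), both uncalled.

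**Figure D5:**
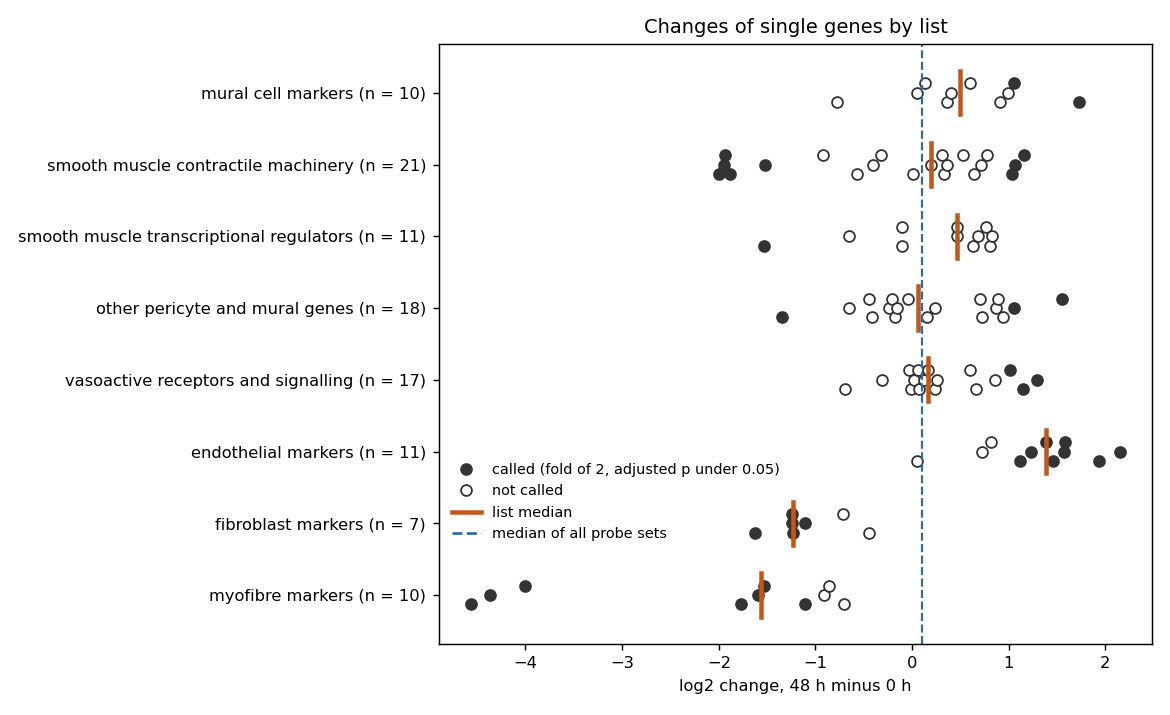
Log2 change at 48 h against 0 h (horizontal axis) of each measured gene in the mural cell markers, 4 related gene lists and 3 lists of other cell types, with filled points for called genes and a bar at each list's median. The median of the mural cell markers (0.50) lies between those of the endothelial markers (1.38) and the myofibre markers (-1.57).

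Markers of the other cells in muscle moved in different directions. Over all probe sets 4.35% rose and 12.1% fell. Of 11 endothelial markers 8 rose and none fell (median 1.38), among them Emcn, endomucin, which rose by 2.15, and Pecam1, CD31, which rose by 1.46. Their summed signal on the linear scale was between 1566 and 2157 at 0 h and between 3922 and 6506 at 48 h. Of 10 myofibre markers 7 fell and none rose (median -1.57), with a sum of 56293 to 58913 at 0 h and 14846 to 29545 at 48 h. Of 7 fibroblast markers 5 fell and none rose (median -1.23), with a sum of 7362 to 11209 at 0 h and 3583 to 4406 at 48 h. One of 5 Schwann cell markers rose (median 0.40, sum 603 to 1041 and 1372 to 1748), and 1 of 7 leukocyte markers fell (median 0.07, sum 248 to 322 and 211 to 339). The 10 mural cell markers summed to 1785 to 2675 at 0 h and 3659 to 4959 at 48 h. A linear sum weighs most the probe sets with the highest values. The median log2 level of the 10 mural cell markers per array overlapped, at 6.42 to 7.57 at 0 h and 6.69 to 7.11 at 48 h. Their mean per array also overlapped, at 6.79 to 7.54 and 7.48 to 7.95. For the Schwann cell markers the median per array was 5.26 to 5.76 and 5.33 to 5.75. The median change of the endothelial markers was 1.88 after cyclic loess, 0.92 after centring on olfactory receptors and -0.29 after centring on bacterial controls, while all myofibre and fibroblast markers were below 0 under each of these. The part of these other cells in the changes of the mural cell markers was not tested.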

How the data were processed

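RNA of femoral muscle was amplified by the authors from its 3′ end (GeneChip 3′ IVT Pico) and hybridised to Clariom S Rat arrays, 1 array per rat. The deposited values are log2 levels that the authors made by robust multi-array averaging (RMA, which subtracts background, quantile-normalizes and summarizes probes) in Transcriptome Analysis Console 4.0; the processing notes name build rn6. Of 24834 probe sets, 1646 controls were left out and 23188 tested, 15049 of them with a gene symbol from the platform table. A linear model with empirical Bayes moderation (limma 3.58.1, R 4.3.3) compared 5 rats at 48 h with 5 at 0 h, with Benjamini-Hochberg adjustment over all probe sets. A probe set was called at a 2-fold or larger change with adjusted p below 0.05. The fit was checked on simulated arrays with known changes. For a gene with several probe sets the one with the highest mean was used. Levels of different probe sets were not ranked, and the number of arrays limits the precision.

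The markers and gene lists were chosen with earlier results of these data known. Named were all markers, from each related list up to 4 called genes in the more frequent direction, 2 in the other and 2 uncalled, and the 5 genes most like the marker of largest change. Ppp1r12a was named beside Ppp1r12b, outside that rule. Alternatives were cyclic loess, centring on olfactory receptors (names starting Or or Olr) or, added after seeing the data, on 8 bacterial and phage controls or the 33 Olr-named probe sets alone, other variance models, a filter on dim probe sets, a replicate block, other call rules, the mean of a gene's probe sets and leaving out each rat.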

Additional observations from a re-analysis of the deposited data

Results flagged for a closer look

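In 62 groups of 5 rats (31 named genes at 0 h and at 48 h), 4 values stood apart from the other rats of their group by Dixon's test, where chance gives about 1 in 20. The measure is the gap to the nearest rat as a share of the group's range, with a critical value of 0.71. Actg2 in 0 h rat 5 had a gap of 0.737 (level 8.05, nearest rat 7.14). Actg2 in 48 h rat 1 had a gap of 0.843 (level 5.93, nearest rat 6.51). Gja5 in 0 h rat 1 had a gap of 0.738 (level 4.79, nearest rat 5.40). Abcc9 in 0 h rat 4 had a gap of 0.811 (level 9.60, nearest rat 9.33).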

How the results depend on the processing

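The scaling moved the values most. After cyclic loess 5 markers were called (Acta2, Tagln, Mylk, Mcam and Rgs5, all higher), with 2 regulators and 5 pericyte and mural genes, and the markers' median was 0.95. After centring on 1057 olfactory receptor probe sets 2 markers (Mcam higher, Actg2 lower), 2 regulators and 1 vasoactive gene (these 3 all lower) were called, and the median was 0.035. With the 33 Olr-named probe sets alone these counts were 2, 2 and 1, in the same directions, and the median was -0.041. With the 1057, Acta2 (0.14, limma adjusted p = 0.600), Tagln (0.52, adjusted p = 0.128) and Rgs5 (0.44, adjusted p = 0.0543) passed neither test. Over all 23188 probe sets 1307 rose and 2049 fell after cyclic loess. With the 1057 olfactory receptor probe sets 208 rose and 5061 fell. After centring on bacterial controls, which rose by 0.33 to 2.67, every call in these lists was lower, and the markers' median was -1.17. Called were 6 markers, 16 contractile genes, 7 regulators, 11 pericyte and mural genes and 13 vasoactive genes. Under this centring 20238 of all 23188 probe sets were called lower. Among the 31 named genes, the changes that turned negative there were Acta2 -1.07, Myh11 -1.28, Cnn1 -1.62, Mylk -0.62, Notch3 -1.31, Cspg4 -1.54, Tagln -0.69, Rgs5 -0.77, Tagln2 -0.96, Nr2f2 -0.85, Art3 -0.97, Tpm4 -0.52, Flna -0.61, Klf4 -1.05, Ebf1 -0.12, Gja5 -0.62, Npr1 -0.38, Gucy1a1 -0.53, Cacna1c -0.66, P2rx1 -1.02 and Agtr1a -1.51. By adjusted p alone 6, 14, 9, 9 and 7 genes of these lists were called, of 10, 21, 11, 18 and 17. Over all probe sets 44.9% passed that rule. The cause was not tested.

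Leaving out 1 rat gave 2 to 3 called markers, a median of 0.39 to 0.64 and 2 to 5 pericyte and mural genes (5 without 0 h rat 3). The actin differences stayed between 1.19 and 1.54 (Actg2) and between 1.18 and 1.42 (Acta1). They were not recomputed after cyclic loess, where Acta2 changed by 1.22 and Actg2 by -0.38. With the replicate number as a block 2 markers were called, and 1009 probe sets rose and 2815 fell. Deviations of same-numbered rats had r from -0.00416 to 0.0761. The closest 48 h rat had the same number for 0 h rats 2, 4 and 5, and another number for 0 h rats 1 and 3. By design the groups held different rats, so the numbers only name them. Other variance models, the dim filter and the mean of probe sets changed no call of a marker. Signal near the floor limits Cnn1 and Cspg4 most, and Myh11 and Notch3 came within 0.31 and 0.42 of it.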
